A study of Mus musculus with 4 samples.

Results

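The interferon-inducible GTPases of CD4 cells were compared between sanroque and wild type mice. The family was taken as 10 genes, Iigp1, Irgm1, Irgm2, Igtp, Ifi47, Tgtp1, Gbp2, Gbp3, Mx1 and Mx2, and its members were all probe sets annotated to 1 of these genes alone, older names included. There were 11 such probe sets among the 22690 of the array, and they covered 9 of the 10 genes, since the only probe set for Tgtp1 is shared with Tgtp2 and was kept apart. Of the 11, 10 passed the filter on low signals and were tested among 13579 probe sets in all, and 1, that of Mx2, lay below it.

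The data were 4 Affymetrix MOE430A arrays of RNA from CD4 cells, 2 from wild type (+/+) and 2 from sanroque (san/san) mice. Sanroque came from mutagenesis of C57BL/6 mice with ENU, is inherited recessively, and was found by a screen for antinuclear autoantibodies. Its mutation is known to lie in Rc3h1, the gene of the RNA-binding protein Roquin-1. No treatment is stated, and neither is the age of the mice used, whether an array holds RNA of 1 mouse or of several, or whether both genotypes share a strain background; for wild type array 2 the letters CBA, without explanation, stand in the sample field of its experiment information. Both number 1 arrays were hybridised and scanned on the same day (day 1) and both number 2 arrays on another (day 2), so each difference can also be read within a day.

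Interferons are secreted proteins that warn cells of infection. Interferon gamma signals through its receptor and the kinases Jak1 and Jak2 to a DNA element called GAS, and type I interferons signal through Jak1 and Tyk2 to a complex with Stat2 and Irf9 that binds an element called ISRE. Among the genes they induce are large families of GTPases. The immunity-related GTPases (IRGs) and the guanylate-binding proteins (GBPs) gather on the vacuoles of intracellular parasites and bacteria and help to break them. Irgm1, Irgm2 and Igtp (Irgm3) regulate the other IRGs and guard the cell's own membranes, and mouse T cells that lack Irgm1 survive poorly when exposed to interferon gamma. Mx proteins block viruses and respond mainly to type I interferons; common laboratory strains carry broken copies of both Mx genes, which the RefSeq gene table lists as transcribed pseudogenes.

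The promoters show which of these elements the members carry close to the start of transcription. They are from RefSeq (build GRCm38.p6), where windows from 250 bases before to 50 bases after the start were on hand for Irgm1, Irgm2, Igtp, Ifi47, Tgtp1, Gbp2 and Gbp3. The last 120 bases before the start are printed for these, 5′ to 3′ on the strand of the gene, with matches to TTCNNNGAA (GAS) and to GAAA, any 2 bases and GAAA again (ISRE), searched on both strands, in capitals. The windows are chr11:58199436-58199555 (plus strand) for Igtp, chr11:58214857-58214976 (plus strand) for Irgm2, chr11:48992247-48992366 (minus strand) for Tgtp1, chr11:48871421-48871540 (minus strand) for Irgm1, chr3:142620543-142620662 (plus strand) for Gbp2, chr3:142559924-142560043 (plus strand) for Gbp3, where the more upstream of 2 listed starts is used, and chr11:49076467-49076586 (plus strand) for Ifi47.
Igtp: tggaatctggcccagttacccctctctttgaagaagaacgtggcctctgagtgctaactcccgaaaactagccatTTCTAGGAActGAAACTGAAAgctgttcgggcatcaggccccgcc
Irgm2: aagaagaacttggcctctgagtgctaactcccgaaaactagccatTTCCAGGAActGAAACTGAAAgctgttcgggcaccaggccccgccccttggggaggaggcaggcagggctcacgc
Tgtp1: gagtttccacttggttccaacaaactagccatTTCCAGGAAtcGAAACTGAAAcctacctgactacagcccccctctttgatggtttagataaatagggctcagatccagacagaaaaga
Irgm1: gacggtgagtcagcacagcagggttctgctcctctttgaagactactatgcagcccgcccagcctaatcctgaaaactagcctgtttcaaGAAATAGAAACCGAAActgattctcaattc
Gbp2: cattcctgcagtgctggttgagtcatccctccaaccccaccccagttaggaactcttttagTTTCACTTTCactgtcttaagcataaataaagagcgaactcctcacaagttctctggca
Gbp3: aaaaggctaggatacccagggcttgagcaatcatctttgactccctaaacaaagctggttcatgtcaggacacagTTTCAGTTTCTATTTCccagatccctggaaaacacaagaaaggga
Ifi47: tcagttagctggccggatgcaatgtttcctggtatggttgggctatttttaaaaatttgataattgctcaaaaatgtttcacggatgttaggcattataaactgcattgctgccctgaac

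Igtp, Irgm2 and Tgtp1 each carried a GAS followed after 2 bases by an ISRE, as 1 run of 21 bases. The GAS of Igtp began 45 bases before the start, that of Irgm2 75 and that of Tgtp1 88 bases before it. This combined motif, a GAS, any 2 bases and an ISRE, on either strand, was present in 5 of 32851 promoter windows of the table (0.0152%), and the other 2 belonged to Tgtp2 and Gm12185, an IRG gene also known as Irgb2b1. For the combination, only the order and spacing found in Igtp, Irgm2 and Tgtp1 were searched. Single elements were more common, with a GAS in 8.3% and an ISRE in 3.44% of all windows. Irgm1 had 2 ISRE matches that share 4 bases, 30 and 24 bases before its start, and Gbp3 had 2 on the other strand that also share 4 bases. Gbp2 had 1 ISRE match on the other strand, 59 bases before the start. Ifi47 and the further window of Gbp3 held neither motif in the 300 bases. Igtp and Irgm2 are next to each other in the gene table, and aligned at the GAS without gaps, 87 of 90 bases were the same in both, against 47 of 90 for Igtp and Tgtp1. A match describes letters only and is not a measured site.

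Iigp1 rose in sanroque, by about 2-fold, and was the only member to pass the test in the fit without a block for day. Igtp, Irgm1, Irgm2, Gbp3 and 1 of the 2 Gbp2 probe sets also had higher signals on both sanroque arrays than on both wild type arrays, with log2 differences of 0.55 to 0.79, and passed with the day as a block. Ifi47 was at nearly the same level in both genotypes. All 10 tested member probe sets had a positive difference, against 52.1% of all probe sets tested, and their median was 0.65 against 0.015. A log2 difference of at least 0.5 was found in 8 of the 10, against 8.07% of all probe sets. Mx1 passed the filter through its sanroque signals alone, and over the other 9, at or above it in both genotypes, the median was 0.64, with 7 of at least 0.5.

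Without the block 2 of 10 member probe sets, both of Iigp1, passed limma at an adjusted p of 0.05, against 1.06% of all probe sets tested (0.67% higher in sanroque). At an unadjusted limma p under 0.05 without the block were 8 of 10, against 1343 of all 13579 probe sets tested. The block leaves 1 residual degree of freedom. With the day as a block 7 of 10 passed, all higher in sanroque, against 6.27% of all (3.59% higher). The genotypes did not overlap for 8 of 10, all higher in sanroque, against 21% of all probe sets that did not overlap and were higher. The difference was above 0 on both days for 9 of 10, against 33.1% of all. Over the 9 probe sets at or above the filter in both genotypes, thus without Mx1, 7 did not overlap and 8 were above 0 on both days. The medians of the members within a day were 0.58 on day 1 and 0.80 on day 2, against 0.018 and 0.020 for all probe sets. The members were chosen with earlier results of these data known, and neighbouring family genes can share sequence and regulation, so these counts describe the family and are not independent trials. In bulk RNA, more RNA per cell and more cells that hold it cannot be told apart.

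**Figure D1:**
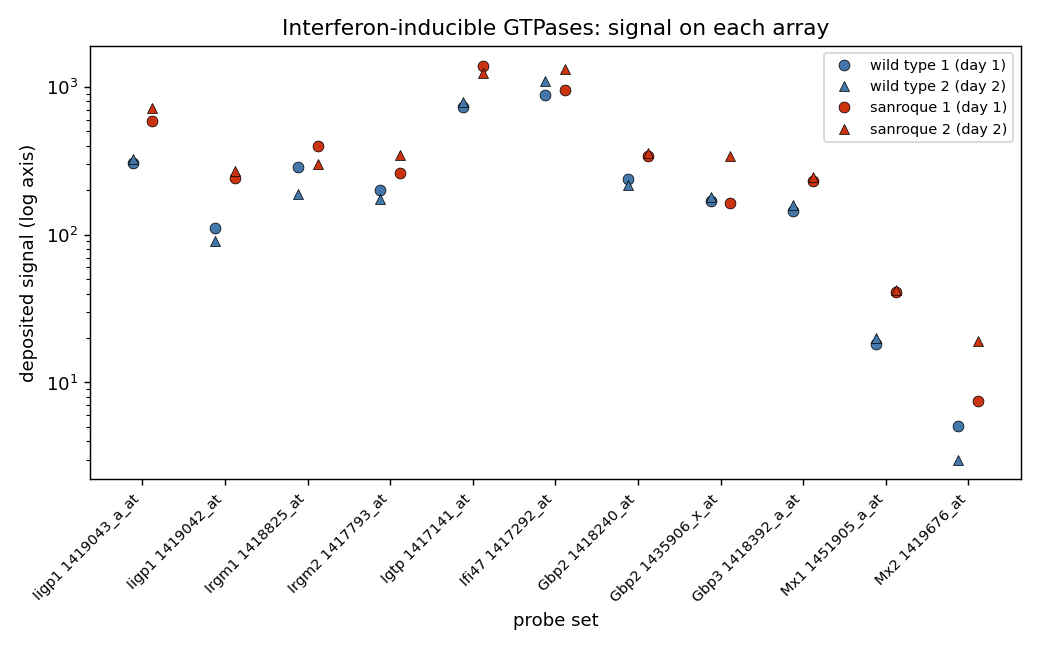
Deposited signal (log axis) of the 11 member probe sets on the 4 arrays, wild type in blue and sanroque in red, circles for day 1 and triangles for day 2. The sanroque symbols lie above both wild type symbols for every probe set but Ifi47 and the x_at probe set of Gbp2.

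Among the IRGs, Iigp1 (Irga6), an effector that loads onto parasite vacuoles, has 2 probe sets. The first, of type a_at, read 305.5 and 324 on wild type arrays 1 and 2 and 588.1 and 714.8 on sanroque arrays 1 and 2. Both sanroque arrays were higher than both wild type arrays, and the gap was wider than the spread within either genotype. The log2 difference was 1.03 (standard error 0.177, limma adjusted p = 0.0209), and 0.93 and 1.13 within day 1 and day 2. The other, of type at, read 111.6 and 91.1 in wild type and 243.2 and 271.4 in sanroque. Again the genotypes did not overlap, with a log2 difference of 1.30 (standard error 0.193, adjusted p = 0.00897). Both probe sets thus passed, with a ratio of mean signals of 2.07 and 2.54. For the a_at probe set the call was lost with sanroque array 2 left out (adjusted p = 0.13), without the filter (0.065) or when arrays were centred on their medians (0.263). Neither passed without the variance trend (0.204 and 0.115).

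Igtp, 1 of the 3 regulatory IRGs, read 737.1 and 785.3 in wild type and 1394 and 1248 in sanroque. Sanroque lay above wild type without overlap, and each genotype differed little between its own arrays. A log2 difference of 0.79 (standard error 0.171) resulted, which did not pass (limma adjusted p = 0.0636). It passed with the day as a block (0.000316) and under quantile normalization (0.0383). It did not pass when arrays were centred on their medians (0.629), without the filter (0.159) or without the variance trend (0.299). With 1 array left out the difference was 0.71 to 0.87.

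Irgm2, the neighbour of Igtp on the chromosome, shares with it 87 of the 90 promoter bases compared around the GAS. Irgm2 read 201.6 and 175.8 in wild type and 262.1 and 344.9 in sanroque. There was no overlap, though the sanroque arrays lay further apart than those of wild type. Its log2 difference was 0.66 (standard error 0.196, limma adjusted p = 0.213, and 0.0104 with the day as a block), from 0.37 on day 1 and 0.95 on day 2.

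Irgm1, the regulator tied to T cell survival, read 287.8 and 190 in wild type and 401.5 and 299 in sanroque. The lower sanroque array was only just above the higher wild type array, and in both genotypes the day 1 array was the higher one. Read within days, sanroque was higher by 0.47 on day 1 and by 0.64 on day 2. The overall log2 difference was 0.55 (standard error 0.23, limma adjusted p = 0.455, and 0.0225 with the day as a block). It also passed without wild type array 1 (log2 difference 0.85, adjusted p = 0.0413), and without wild type array 2 the difference was 0.26 (adjusted p = 0.969).

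Ifi47 (Irgd) differed least. Its signal was 877.2 and 1104 in wild type and 948.3 and 1315 in sanroque. The genotypes overlapped, and the day 2 array was the higher one in each. The log2 difference was 0.18, with a 95% interval from -0.28 to 0.64 (limma adjusted p = 0.876, and 0.536 with the day as a block), and without sanroque array 2 it was -0.053. The interval of Ifi47 meets that of the a_at probe set of Iigp1, which runs from 0.64 to 1.42, only at its edge; the difference between the genes was not tested.

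Tgtp1 encodes Irgb6, an IRG that reaches parasite vacuoles early, and Tgtp2 is a near-copy of it. Their shared probe set lies outside the rule and cannot tell the genes apart. It read 950.8 and 1167 in wild type and 1673 and 1844 in sanroque. Both sanroque values were the higher ones. Here the log2 difference was 0.73 (standard error 0.183, limma adjusted p = 0.114, and 0.000636 with the day as a block), close in size to those of Igtp and Irgm2. Gm12185, the remaining gene with the combined promoter motif, had a probe set that read 49.2 and 54.7 in wild type and 32 and 48.8 in sanroque. Both sanroque values were lower than both wild type values. The log2 difference was -0.34 (limma adjusted p = 0.801, and 0.49 with the block), from -0.54 on day 1 and -0.15 on day 2. Gm12185 was named after its values were seen. The probe sets of genes with the combined motif thus had differences from -0.34 to 0.79.

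**Figure D2:**
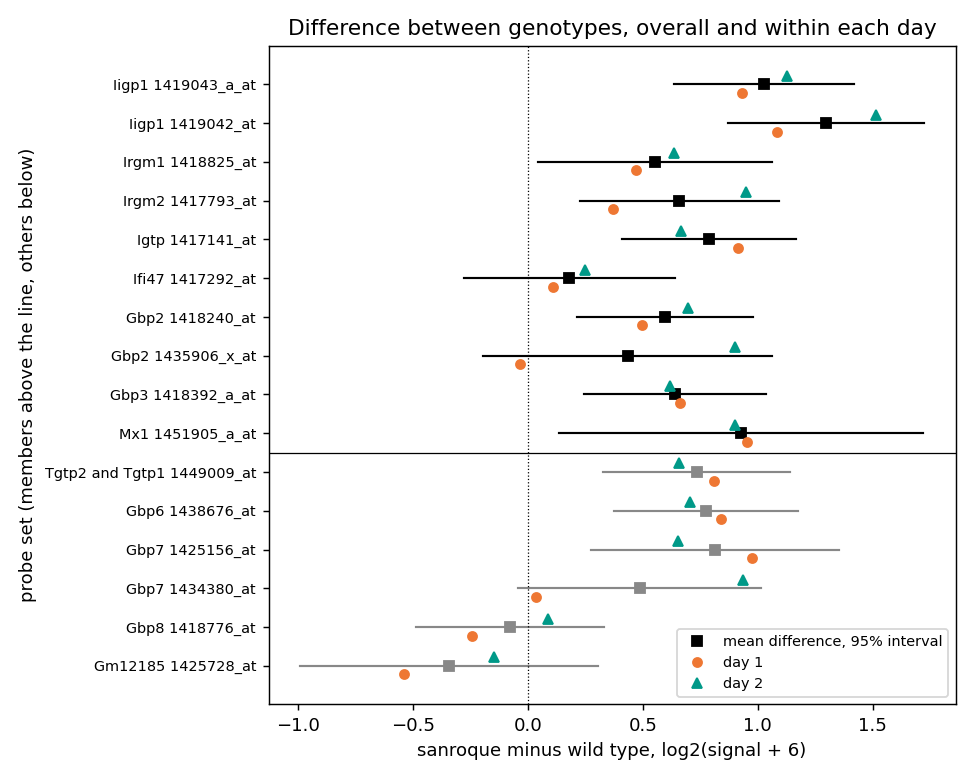
Difference of sanroque minus wild type in log2(signal + 6) for the 10 tested members (above the line) and 6 related probe sets (below it): squares with bars are the mean difference and its 95% interval without a block, circles the difference on day 1 and triangles on day 2. The members lie between 0.18 and 1.30, and 1 of them, the x_at probe set of Gbp2, is below 0 on day 1.

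Of the GBPs, Gbp2, which attacks vacuoles of Toxoplasma and of bacteria, has 2 probe sets. The probe set of type at read 239.6 and 218.3 in wild type and 340.2 and 357.6 in sanroque. Both sanroque arrays were higher, and the arrays of each genotype lay close together. This gave a log2 difference of 0.60 (standard error 0.173, limma adjusted p = 0.197, and 0.0136 with the day as a block). The x_at probe set, whose suffix marks probes that can match several transcripts, read 169 and 181.2 in wild type and 165.2 and 343.6 in sanroque. Here sanroque array 1 was the lowest of the 4 and sanroque array 2 the highest. Within days the difference was -0.032 on day 1 and 0.90 on day 2, and it did not pass with or without the block (limma adjusted p = 0.162 and 0.7).

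Gbp3, which lies near Gbp2 in the same group of GBP genes on chromosome 3, read 144.5 and 157.8 in wild type and 232.1 and 245.7 in sanroque. Sanroque was the higher on either day, and the differences on day 1 and day 2 were nearly equal, at 0.66 and 0.62. Overall the log2 difference was 0.64 (standard error 0.179, limma adjusted p = 0.17, and 0.0108 with the day as a block).

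Other GBPs, outside the 10 genes, were on a list of 18 further family genes. Of these 18, 4 had a probe set of their own and 3 were tested. Gm12185, whose sanroque values both lay below those of wild type, was not on that list. None of the 3 passed limma without the block (2 of them had differences above 0, and 1 had an unadjusted p under 0.05), and 1, Gbp6, passed with it. Gbp6, from the GBP group on chromosome 5, read 129.3 and 145.7 in wild type and 236.6 and 241.4 in sanroque (log2 difference 0.77, limma adjusted p = 0.0891, and 0.00203 with the block). Gbp7 had differences of 0.49 and 0.82 by its 2 probe sets (limma adjusted p = 0.557 and 0.216), and the latter passed with the block (0.0135). Leaving out 1 wild type array moved the former between 0.14 (without array 2) and 0.84 (without array 1). Gbp8 was level, with 319.7 and 324.4 in wild type and 269.2 and 344.8 in sanroque (log2 difference -0.078, limma adjusted p = 0.952). Gbp2b, formerly Gbp1, was below the filter, at 6.7 to 12.5 in wild type and 14.5 to 22.3 in sanroque.

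The Mx genes lay near or below the filter. Mx1 read 18.2 and 19.9 in wild type and 40.9 and 42.4 in sanroque. Sanroque was higher without overlap, and the arrays of each genotype nearly coincided. The log2 difference was 0.93 (standard error 0.358, limma adjusted p = 0.402, and 0.0697 with the day as a block), so Mx1 did not pass either way. It depended on the added constant, at 1.09 with a pseudocount of 1 and 0.61 with one of 24. Mx2 lay below the filter and was not tested, with 5.1 and 3 in wild type and 7.5 and 19.1 in sanroque, and such signals may hold little but background.

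**Figure D3:**
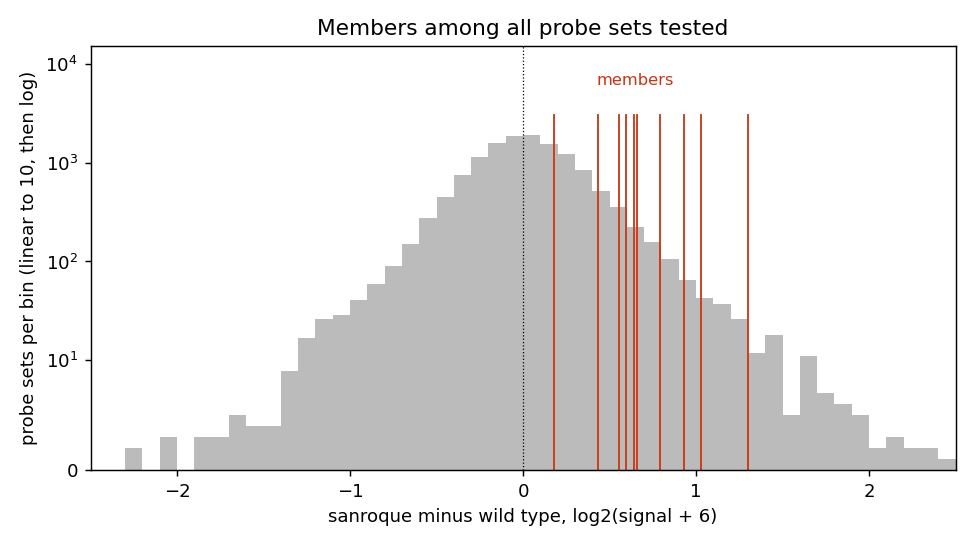
Number of probe sets by their difference of sanroque minus wild type in log2(signal + 6), for all 13579 tested (grey bars 0.1 wide; 21 beyond 2.5 in either direction are not drawn), with a red line at each of the 10 tested members. All red lines lie to the right of 0, from 0.18 to 1.30.

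The rest of the interferon pathway was read from lists written by role, from ligands to other induced genes, each gene standing by the brightest of its tested probe sets. Of 55 such genes 2 rose, Socs3 and Parp14, and none fell, against 1.06% of all probe sets that passed. The fit blocked by day had 17 that rose and 2 that fell, against 6.27% of all that passed. Interferons themselves were near the low end of the table: 8 of 10 with a probe set lay below the filter. Ifng, the gene of interferon gamma, read 37.9 and 56.2 in wild type and 22.5 and 19.9 in sanroque. It was lower in sanroque without overlap, but passed the filter through its wild type signals alone, and the difference did not pass (log2 difference -0.94, limma adjusted p = 0.38, and 0.0532 with the block). Ifnb1 had 0.11 (adjusted p = 0.978). Interferon made by cells other than those on the arrays was not measured here.

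None of 7 receptor and kinase genes passed limma, with or without the block (1 at an unadjusted p under 0.05), and their median was 0.0018. The receptor genes had log2 differences of 0.19 (Ifngr1), -0.35 (Ifngr2), -0.18 (Ifnar1) and 0.0018 (Ifnar2). The kinases had 0.073 (Jak1), 0.52 (Jak2) and -0.075 (Tyk2). These genes were thus near the level of all probe sets, and of them only Jak2 exceeded 0.5, with a limma adjusted p of 0.402 (0.0505 with the block).

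Of 6 tested transcription factor genes none passed limma without the block (3 at an unadjusted p under 0.05) and 3 with it, and 5 were above 0. Irf1, a factor that interferon gamma induces directly, was level, at 638.4 and 728.1 in wild type and 710.9 and 700.7 in sanroque (log2 difference 0.049, limma adjusted p = 0.971). Stat2 and Irf9, of the complex that binds the ISRE, had 0.67 and 0.34 (limma adjusted p = 0.362 and 0.567), and Stat2 passed with the block (0.0474). Irf8 (0.74) and Irf7 (0.60) passed with it too (limma adjusted p = 0.00283 and 0.0203), and were named after their values were seen.

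Among 8 inhibitors 1 rose and none fell, and with the block 2 rose and 2 fell. Socs3, which restrains cytokine receptors of the IL-6 family, read 234.8 and 247.3 in wild type and 562.6 and 701.6 in sanroque. The genotypes were far apart, with a log2 difference of 1.36 (limma adjusted p = 0.00441, and 0.101 without the variance trend). This probe set is of type x_at, so its probes can match several transcripts. Socs1, the main brake on interferon gamma receptors, was level and overlapping (-0.18, limma adjusted p = 0.932). Usp18, which restrains the type I receptor, had 0.31 (adjusted p = 0.637).

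Of 32 other interferon-induced genes 28 were above 0, 1 rose and none fell, and 12 rose with the block. Their median log2 difference was 0.49. Parp14, an ADP-ribosyltransferase, rose from 149.4 and 167.7 in wild type to 328.4 and 301.4 in sanroque (log2 difference 0.96, limma adjusted p = 0.0299). It did not pass under quantile normalization (0.0505), median centring (0.227), without the filter (0.0812), without the variance trend (0.209), or without sanroque array 1 (0.125) or 2 (0.0731). In 20 of the 32 genes sanroque was higher without overlap and in 0 lower, against 21% and 17.7% of all probe sets. The genes of the list differed widely, from -0.32 (Sp100) to 1.25 (Oas3, limma adjusted p = 0.209, and 0.000875 with the block). The immunoproteasome genes Psmb8, Psmb9 and Psmb10, along with B2m and Tap2, had differences of -0.015 to 0.062 and Tap1, of the same antigen-processing pathway, had 0.79 (limma adjusted p = 0.1, and 0.00124 with the block). Sp100, Oas3 and these 6 genes were named after their values were seen.

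Genes that act with or resemble the GTPases without being counted as interferon-induced had medians near 0. Of 12 genes of vacuole targeting and autophagy, whose proteins direct IRGs and GBPs to vacuoles, none passed limma without the block (1 at an unadjusted p under 0.05) and 1 with it, Gabarapl1, named after its values were seen, and the median was -0.053. Of 7 tested dynamin-related GTPase genes, such as Dnm2, Opa1 and Mfn2, none passed limma with or without the block (0 at an unadjusted p under 0.05), with differences of -0.25 to 0.27 and a median of 0.074.

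**Figure D4:**
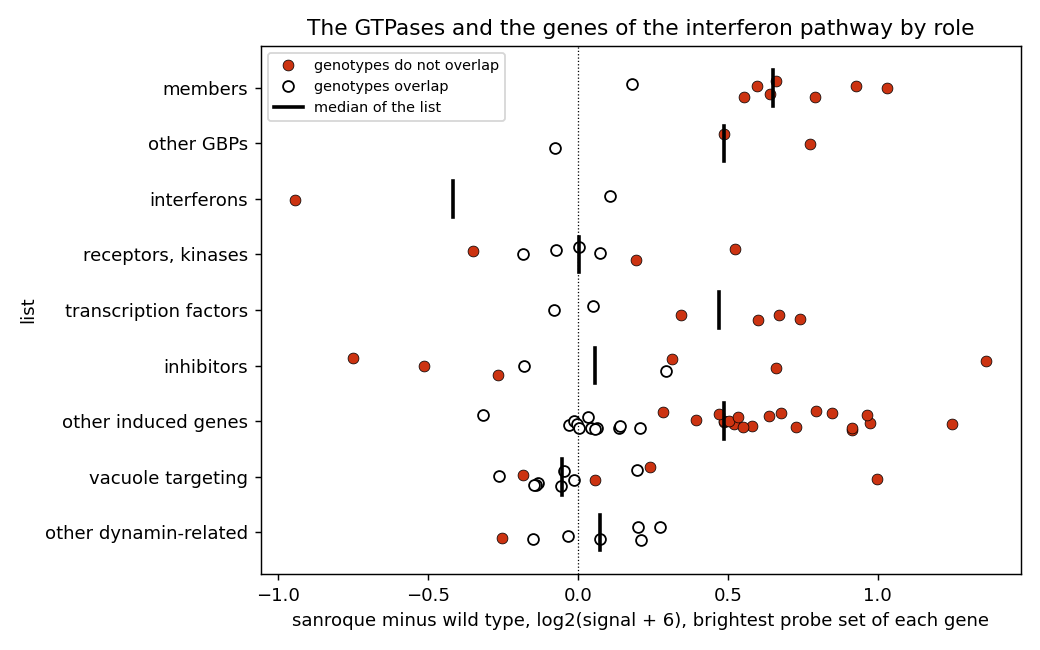
Difference of sanroque minus wild type in log2(signal + 6) of each tested gene, by its brightest probe set, for the members and the pathway lists; filled points are genes whose genotypes do not overlap, open points those that do, and bars the median of each list. The members and the other induced genes lie mostly to the right of 0, while receptors and kinases centre on 0 and Ifng, the leftmost point, is at -0.94.

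The members lie in several places of the genome, and their neighbours were read to see whether whole regions differed. The table places Irgm1, Tgtp1, Ifi47, Igtp and Irgm2 on chromosome 11, Gbp2 and Gbp3 on chromosome 3, Mx1 and Mx2 on chromosome 16 and Iigp1 on chromosome 18. Around these groups, the 3 nearest tested genes on each side that belong to no GTPase family, as far as the chromosome held them, gave 29 genes. None of the 29 passed limma without the block, and 4 had an unadjusted p under 0.05, against 1343 of all 13579 probe sets. With the block 2 passed, Zbtb21 and Dctn4, both lower in sanroque, against 6.27% of all probe sets. The median log2 difference of the 29 was 0.087, with a range from -0.90 to 0.67. Without overlap 8 of the 29 were higher and 6 lower in sanroque, against 21% and 17.7% of all probe sets. The choice of neighbours was made after the values of the members were seen.

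CD4 cell markers were level, with summed signals of Cd4, Cd3e, Cd3d and Cd3g of 5746 to 6626 in wild type and 5586 to 6227 in sanroque. Markers of cells that can also express these GTPases were present. Of all probe sets tested 0.67% rose, and 3.59% with the block. Of 6 macrophage genes all were measured, Lyz2 rose and 3 rose with the block. The genotypes overlapped for Adgre1, Cd14 and Cd68. The summed signal of the 6 was 949.7 to 1057 in wild type and 1743 to 1846 in sanroque. Lyz2 alone read 201.1 and 210 in wild type and 642.6 and 637.6 in sanroque. Of 6 neutrophil genes 3 rose, 5 with the block, and Elane was near 0. Camp, 1 of the 5, passed the filter through its sanroque signals alone. It read 4.5 and 17.2 in wild type and 55.2 and 59.1 in sanroque. The sum of the neutrophil genes was 477.3 to 485.2 in wild type and 1256 to 1323 in sanroque. Of 4 measured dendritic cell genes 3 lay below the filter, with sums of 73.3 to 99.8 and 88.4 to 133.7. B cell genes summed to 858.6 to 908.4 and 799.6 to 854.7, plasma cell genes to 542.1 to 570.4 and 430.5 to 494.6, and CD8 or NK cell genes to 319.4 to 335.2 and 293.1 to 309.2, in wild type and sanroque. None of these 3 lists had a gene that passed limma with or without the block (1 plasma cell gene at an unadjusted p under 0.05), and Pax5 and Sdc1 were below the filter. Red cell genes summed to 769.4 to 775.8 in wild type and 1166 to 1281 in sanroque, and 2 rose with the block. The summed signals of macrophage, neutrophil and red cell markers thus were higher on the same arrays as the GTPases. The part of such cells in the GTPase values was not tested.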

How the data were processed

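RNA of CD4 cells was measured on 4 MOE430A arrays, 2 per genotype (chip type per the file headers). For each array and probe set the deposited value is a linear intensity. The method of summarising probes is not given in the sources used here. Trimmed means of the deposited intensity lay between 99.59 and 99.97, so the authors had scaled the arrays, and medians between 30.8 and 40.4. The number of arrays limits the precision.

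Genotype and replicate number came from the sample titles. Numbers pair arrays that share a hybridisation and scan day, per the file headers; deviations from the genotype mean of same-numbered arrays correlated with 0.392 over probe sets (2 pairs). Whether arrays hold separate mice is not stated, so the p-values reflect spread among arrays that may be technical replicates.

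Values were analysed as log2(signal + 6). Tests covered the 13579 probe sets, without the 64 controls, whose mean signal reached the 40th percentile (21.3). Limma 3.58.1 in R 4.3.3 (lmFit, eBayes with a variance trend; no covariate) gave two-sided p-values, adjusted by Benjamini-Hochberg over all probe sets tested, with a threshold of 0.05. The day as a block was an alternative, as were those in the closing section. The fits were also run on simulated data with planted changes, where only the size of the fitted changes was checked.

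Symbols came from the platform's annotation and a RefSeq gene table (GRCm38.p6), and 20380 probe sets had 1 symbol. The text names all members, pathway genes past the test, a fixed set of pathway genes, and other genes where marked. Members and lists were chosen with earlier results of these data known. Promoters were on hand for 7 of the 10 member genes. Plots used matplotlib 3.10.9 (Python 3.11.15).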

Additional observations from a re-analysis of the deposited data

How the results depend on the processing

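All 10 tested member probe sets kept a positive difference under quantile normalization, median centring and both other pseudocounts; the filter and the variance trend cannot change a difference, only its p-value. Without sanroque array 2 Ifi47 turned to -0.053 (0.42 without sanroque array 1) and the x_at probe set of Gbp2 to -0.080 (0.95 without sanroque array 1). Of 119 values of members under alternatives, 103 kept their sign and side of the threshold, 9 passed where the reported fit did not, 5 no longer passed and 2 changed sign. The member probe sets past the threshold numbered 2 in the reported fit, 7 with the replicate block (the day as a block), 1 with median centring, 1 without the filter and 0 without the variance trend (limma; 8 at an unadjusted p under 0.05 in the reported fit), and 1 to 4 with 1 array left out, the lowest without sanroque array 2 and the highest without wild type array 1. Over all probe sets 144 passed, against 852 with the replicate block, 47 without the variance trend, 56 without the filter and 105 to 356 with 1 array left out (356 without wild type array 1, 105 without sanroque array 2). Genes past the threshold over all lists by role, 77 with the other GBPs, autophagy and dynamin-related genes, numbered 2, against 21 with the replicate block, 1 under quantile normalization, 1 with median centring, 1 without the filter, 0 without the variance trend, 6 when the probe sets of each gene were averaged, and 2 to 7 with 1 array left out (7 without wild type array 1). In each case the cause was not tested. None of the further genes that changed sign had passed. Median centring gave -0.089 for Ifnar2, -0.018 for Jak1 and -0.041 for Irf1, and quantile normalization gave -0.0046 for Ifnar2. With 1 array left out the range was -0.17 to 0.18 for Ifnar2, -0.0038 to 0.15 for Jak1, -0.27 to 0.12 for Tyk2, -0.045 to 0.14 for Irf1, -0.55 to 0.19 for Socs1 and -0.25 to 0.097 for Gbp8. Without a change of sign it was 0.11 to 0.28 for Ifngr1, -0.60 to -0.098 for Ifngr2, -0.31 to -0.055 for Ifnar1, 0.29 to 0.76 for Jak2, 0.44 to 0.90 for Stat2 and 0.14 to 0.84 for Gbp7, the ends given by leaving out wild type array 1 or 2. With 1 array left out, the lone array is assumed to vary like the other genotype's.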
